A study of Mus musculus with 2207 samples.

Results

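Myelin is the lipid-rich sheath that oligodendrocytes wrap around axons, and 9 of its genes were described here: Mbp, Mog, Mag, Mobp, Cnp, Mal, Cldn11, Opalin and Ermn. They were chosen by name as classical markers of the mature oligodendrocyte, and each matched 1 row of the 52636 genes measured. RNA of single nuclei of mouse cortex was read by RamDA-seq, a full-length method for total RNA that works without poly(A) selection. The values are RPKM (reads per kilobase of exon, scaled to the reads of the nucleus), so they can be compared between genes, and all fold changes below are on the log2(mean RPKM + 0.1) scale. Of 2207 nuclei, 397 were labelled Oligodendrocyte, 1664 Neuron and the rest Microglia.

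The nuclei came from 6 pools, each from 3 C57BL/6 mice of 14 weeks of age. All the mice had received tamoxifen at 3 weeks, in 2 doses of 100 mg/kg. In 96-well plates the pools were WT (Ehmt1+/+) and Ehmt1delta/+, which lacks 1 functional copy of Ehmt1, the gene of the H3K9 methyltransferase GLP. In 384-well plates there were a WT pool and an Ehmt1delta/+ pool, both carrying the inducible Ehmt1 transgene (iTg) without CamKII-CreER. The other two 384-well pools, Ehmt1 iTg (on Ehmt1+/+) and Ehmt1delta/+; Ehmt1 iTg, carried the transgene together with CamKII-CreER. CamKII-CreER is active in excitatory forebrain neurons and not in oligodendrocytes. The study's legends place CamKII-CreER in all 384-well pools, and the labels were followed here. No label says which mouse a nucleus came from, so each pool counted as 1 sample, and p-values measure only the spread between pools. The 3 pairs of pools that differ in the Ehmt1 allele were the 96-well pair, the 384-well pair without CreER and the 384-well pair with CreER. The pools in the order 96-well WT and Ehmt1delta/+, then 384-well WT, Ehmt1delta/+, Ehmt1 iTg and Ehmt1delta/+; Ehmt1 iTg held 73, 71, 69, 46, 71 and 67 oligodendrocytes, and values below follow this order.

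Oligodendrocytes had a median of 441701 and 478605 reads per nucleus in the 96-well pools, and 49635 to 54877 in the 384-well pools. Ehmt1 itself was higher in the pools labelled Ehmt1delta/+, at 17.5, 25.8, 21.8, 32.6, 20.9 and 28.3 RPKM in oligodendrocytes. This value covers the whole gene and not the deleted part, so it does not check the genotype, and every direction below rests on the labels. All 7 oligodendrocyte markers tested, among them Olig1, Olig2, Sox10 and Myrf, were detected in at least 10% of the nuclei of each oligodendrocyte pool. The summed levels of other lists in oligodendrocytes were 10.1 to 60.01 RPKM for 6 neuronal markers, 4.03 to 12.99 RPKM for 7 microglial markers, 13.4 to 23.5 RPKM for 6 astrocyte markers and 0.00400 to 0.391 RPKM for 4 endothelial markers. Those of 5 precursor markers (Pdgfra, Cspg4, Vcan, C1ql1, Sox6) summed to 0.452 to 1.68 RPKM. Of 5 genes of committed precursors (Gpr17, Bmp4, Enpp6, Tcf7l2, Bcas1), 4 were detected, with a sum of 74.2 to 108.8 RPKM. Tcf7l2 was at 2.79 to 9.49 RPKM, and the sum was not otherwise split by gene. It does not show whether committed precursors were among these nuclei. The neuronal marker Snap25, a synaptic vesicle fusion protein, was unevenly spread over the pools, at 41.3, 8.88, 3.93, 1.30, 0.651 and 5.41 RPKM in oligodendrocytes. The share of summed RPKM from mitochondrial genes in oligodendrocytes was 1.42%, 0.558%, 0.945%, 2.41%, 3.01% and 1.64%.

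The proteins of the 9 genes sit in different parts of the sheath. Mbp encodes the myelin basic protein that holds the cytoplasmic faces of the membrane together, and Mobp encodes another small basic protein of myelin. Mog lies on the outermost surface, Mag on the innermost membrane facing the axon, and Cldn11 forms the tight junctions between the wraps. Mal is a protein of membrane sorting, Cnp encodes the enzyme CNPase that keeps cytoplasmic channels open, Opalin is a transmembrane protein of the paranodal loops, and Ermn is a cytoskeletal protein of late differentiation. Their transcription depends on factors such as SOX10 and MYRF. Much Mbp RNA leaves the nucleus for the myelin sheath, and the nuclear level read here is not the whole cell's RNA.

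RefSeq start regions (250 bases before and 50 after the start, GRCm38.p6) were found for 8 of the 9 genes, Mbp being the one without an entry. They were searched on both strands for 5 short motifs: ACAAAG, a core of SOX factor sites, CTGGCAC, a core of MYRF sites, CAGCTG, an E-box, GGGCGG, a GC box, and CCAAT. Opalin and Cnp are shown because they hold both the SOX and the MYRF letters, as Mag does, and Cldn11 because its level differed between pools as described below. Capitals mark every match, in either direction, and a match describes letters only. Opalin is read from chr19:41077064-41077363 on the minus strand, Cnp from chr11:100574689-100574988 on the plus strand and Cldn11 from chr3:31149670-31149969 on the plus strand.
Opalin: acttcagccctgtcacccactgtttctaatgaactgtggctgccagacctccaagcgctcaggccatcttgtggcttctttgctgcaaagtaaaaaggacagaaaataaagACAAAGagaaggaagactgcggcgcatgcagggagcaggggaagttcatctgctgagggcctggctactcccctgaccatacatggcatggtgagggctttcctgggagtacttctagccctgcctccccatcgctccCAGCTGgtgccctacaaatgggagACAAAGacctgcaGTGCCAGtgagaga
Cnp: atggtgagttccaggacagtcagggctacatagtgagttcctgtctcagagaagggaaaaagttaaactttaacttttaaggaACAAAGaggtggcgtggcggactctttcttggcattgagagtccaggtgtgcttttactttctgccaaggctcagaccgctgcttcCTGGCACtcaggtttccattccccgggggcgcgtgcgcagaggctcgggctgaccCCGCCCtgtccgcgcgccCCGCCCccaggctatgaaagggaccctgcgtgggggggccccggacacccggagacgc
Cldn11: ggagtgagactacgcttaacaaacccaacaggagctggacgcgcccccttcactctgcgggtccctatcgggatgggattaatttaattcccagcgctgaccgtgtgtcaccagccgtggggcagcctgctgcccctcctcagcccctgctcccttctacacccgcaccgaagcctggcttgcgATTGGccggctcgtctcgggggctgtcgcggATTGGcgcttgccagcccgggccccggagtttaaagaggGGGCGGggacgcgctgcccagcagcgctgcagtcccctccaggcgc
In the Opalin window ACAAAG lies before the start and again after it, and the MYRF letters follow on the opposite strand. In the Cnp window ACAAAG lies farther from the start than CTGGCAC, which begins 81 bases before it, both on the gene's strand. ACAAAG was in the windows of 4 of the 8 genes (Cnp, Mag, Mobp, Opalin), against 18.7% of all 32851 windows, and CTGGCAC was in 3 of 8 (Cnp, Mag, Opalin), against 5.01%. CAGCTG was in 1 of 8 (Opalin; 16.3% of all), GGGCGG in 2 of 8 (Cldn11, Cnp; 35.7%) and CCAAT in 3 of 8 (Cldn11, Ermn, Mag; 37.4%). A member counted if any of its windows matched, and Mag has several. The shares of all are per window, with 32851 windows for 27025 genes, so the units differ. The Cldn11 window held none of the SOX or MYRF letters and was the richest in G and C of the windows of the 8 genes, at 66.3% against a median of 52.7% over all windows. Windows of Mal and Mog held none of the 5 motifs.

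Each of the 9 genes was read in most oligodendrocytes. All 9 were detected together in 69, 66, 55, 29, 38 and 50 nuclei of the 6 pools, and 8 or 9 of them in 381 of the 397 nuclei. The summed mean level of the 9 genes was 3694, 3192, 3080, 3282, 3259 and 3819 RPKM in the 6 pools, and no oligodendrocyte had a sum under 100 RPKM. Reads of the 9 genes made up 1.496% to 2.02% of all reads of a pool's oligodendrocytes. Among neurons 2 of 1664 passed a sum of 100 RPKM, and 1, in the 96-well Ehmt1delta/+ pool, had all 9 genes.

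Ordered by the mean of the 6 pools, the levels were 877 ± 264.8 RPKM for Mag, 782 ± 111.8 for Mbp, 522 ± 126.3 for Mobp, 407 ± 146.4 for Cldn11, 297.6 ± 27.7 for Mog, 207.3 ± 177.3 for Mal, 138.4 ± 28.1 for Cnp, 116.9 ± 16.5 for Opalin and 38.6 ± 22.03 for Ermn (SD, n = 6 pools). Neighbours in this order overlapped in their ranges over the pools, except that Ermn in every pool was below Opalin in every pool. The pools of the 2 plate formats were separate samples of separate plates, so format, mice and library depth cannot be told apart.

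Mbp (ENSMUSG00000041607.16) was at 810, 852, 700, 726, 652 and 955 RPKM. It was read in 397 of 397 oligodendrocytes, and the lowest single nucleus, in the 384-well WT pool, still had 258.6 RPKM. Mobp (chr9:120149707-120181484, plus strand, mm10 as all gene positions here) was at 475, 523, 385, 458, 536 and 756 RPKM, and the 384-well pool of Ehmt1delta/+; Ehmt1 iTg was the highest for both basic proteins. Mobp overlaps the gene Gm38642 on the same strand, and 42.5% of its values were not whole reads, so its level is uncertain.

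Mog (chr17:37010743-37023398, minus strand) was the steadiest between pools, at 348.3, 280.99, 277.7, 309.9, 290.6 and 278.1 RPKM, a ratio of 1.25 from the highest to the lowest pool. Mag (chr7:30899176-30914873, minus strand), by contrast, was at 601 and 520 RPKM in the 96-well pools and at 1056, 1109, 1124 and 853 in the 384-well pools. Both 96-well values were below all 4 of the 384-well values. In every pool Mag and Mbp had the lowest relative spread between nuclei of the 9 genes, with coefficients of variation of 0.245 to 0.330 for Mag and 0.272 to 0.427 for Mbp. Of the Mag values, 27.2% were not whole reads.

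Cnp (chr11:100574904-100591729, plus strand) followed the direction of Mag, at 110.8 and 96.2 RPKM in the 96-well pools and 163.7, 149.3, 162.2 and 148.2 RPKM in the 384-well pools. Cnp overlaps Dnajc7 on the opposite strand, and 40.3% of its values were not whole reads. Opalin (ENSMUSG00000050121.8) was at 130.7, 103.4, 109.3, 141.2, 98.5 and 118.3 RPKM with no order by format. It was detected in 94.5%, 94.4%, 91.3%, 89.1%, 71.8% and 92.5% of oligodendrocytes, and the exact 95% interval of the Ehmt1 iTg pool (59.9% to 81.9%) lay below that of the 96-well WT pool (86.6% to 98.5%). These intervals cover counting error only.

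Mal, Cldn11 and Ermn were higher in the 96-well pools. Mal (chr2:127633226-127656695, minus strand) was at 508 and 327.8 RPKM there, and at 77.1, 82.97, 69.2 and 178.7 RPKM in the 384-well pools. Cldn11 (chr3:31149920-31164324, plus strand) was at 642, 423, 286.7, 283.4, 298.4 and 508 RPKM, so that the last 384-well pool stood between the 96-well pools. Ermn (chr2:58045113-58052864, minus strand) was at 68.9 and 64.7 RPKM against 25.2, 21.1, 28.5 and 23.1 RPKM. Its overlapping neighbour Galnt5, on the opposite strand, was at 20.1 and 26.5 RPKM in 96-well oligodendrocytes and 3.75 to 9.57 RPKM in 384-well ones. Of the Ermn values, 25.8% were not whole reads, and the part of Galnt5 reads in them was not tested. The median number of reads behind a nucleus' value was 555 for Mal in the 96-well WT pool and 8 to 21 in the 384-well pools, and 3 to 5 for Ermn in the latter. Ermn was read in 76.1% to 85.5% of oligodendrocytes in 384-well plates, against 100% and 98.6% in 96-well plates. With nuclei thinned to 25000 reads the expected shares were 66.4% to 73.9%, against 98.2% and 95.5%. The thinning left out 1, 1, 4 and 3 oligodendrocytes of the 384-well pools, which had fewer reads. The part of library depth in the gap was not otherwise tested.

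**Figure D1:**
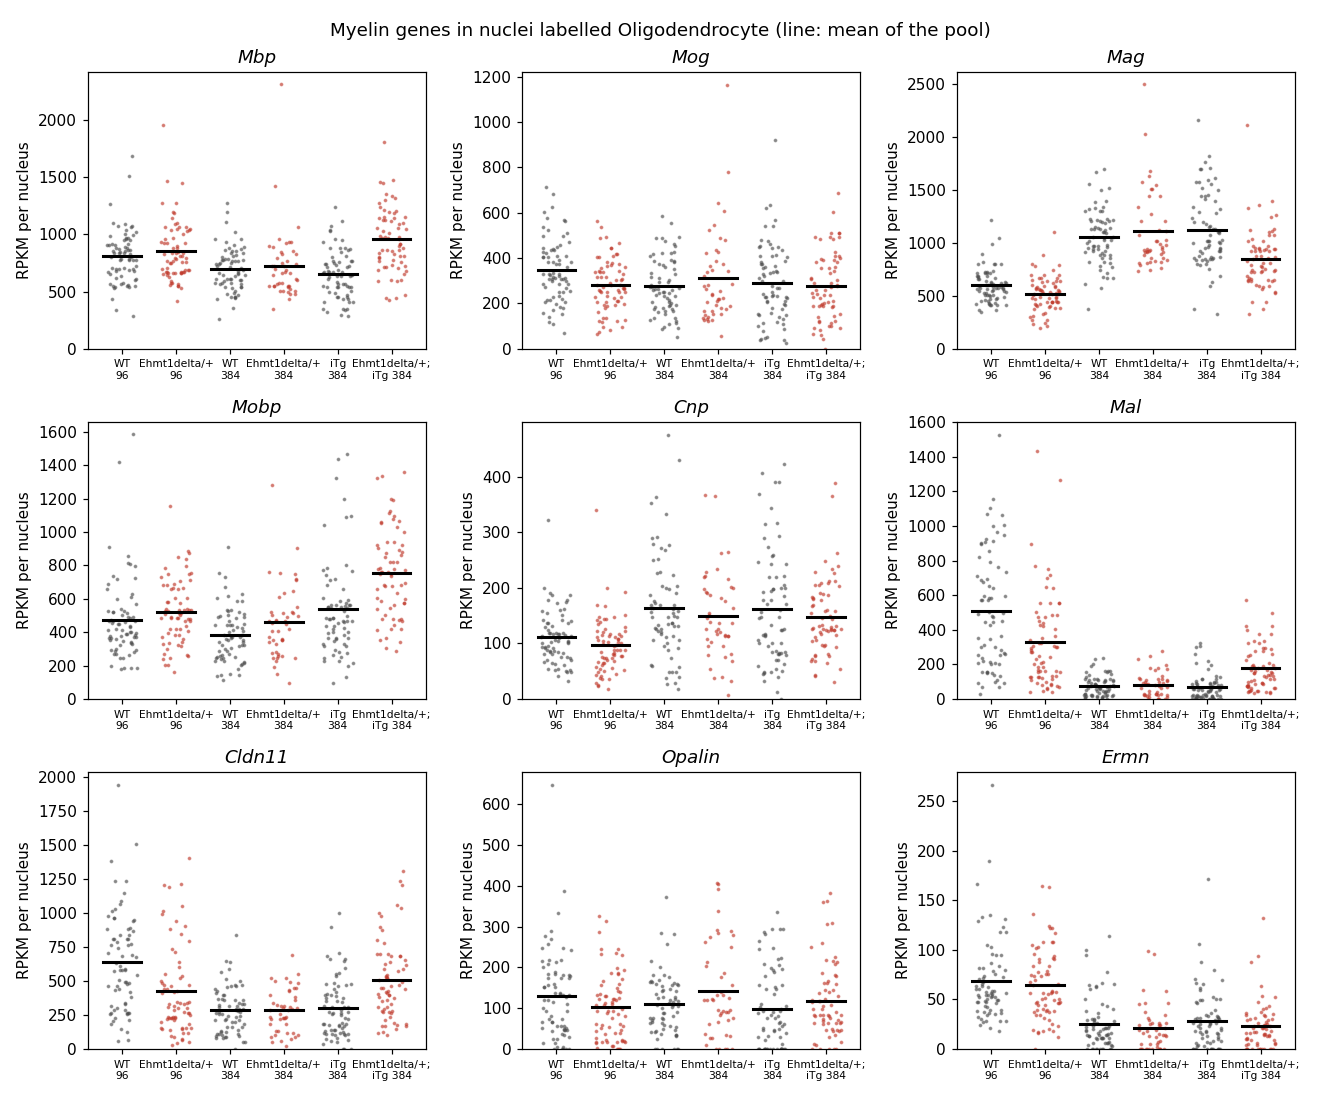
RPKM of the 9 myelin genes (1 panel each, linear axis from 0) in every nucleus labelled Oligodendrocyte, by pool; grey points are Ehmt1+/+ pools, red points Ehmt1delta/+ pools, and the black line is the pool's mean. Mag means lie between 520 and 601 RPKM in the 96-well pools and between 853 and 1124 in the 384-well pools, while Mal means fall from 508 and 327.8 to between 69.2 and 178.7.

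The first comparison asked whether Ehmt1delta/+ oligodendrocytes differ from WT in myelin RNA, over the 96-well pair and the 384-well pair without CreER. In limma, with a term for plate format and 1 degree of freedom left, none of the 9 genes differed, and of all 12832 genes tested 0 (0%) passed an adjusted p of 0.05. At an unadjusted p under 0.05 there were 606 genes (4.72%) and again none of the 9. The median log2 ratio was -0.076 for the 9 genes and -0.024 for all genes tested, and 3 of the 9 were above 0. The largest difference was that of Cldn11, at -0.31 (SE 0.30, 95% interval -1.18 to 0.56, limma adjusted p = 0.898). The intervals leave room for changes of either sign, for example from -0.68 to 0.81 for Mbp and from -0.90 to 0.75 for Mog.

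Adding the 384-well pair with CreER, in which the oligodendrocytes also differ by the Ehmt1 allele, gave 6 pools and 2 residual degrees of freedom. The transgene was induced in neurons of both pools of this pair, and any effect of this on oligodendrocytes was not tested. Again 0 of 11554 genes (0%) passed an adjusted p of 0.05 in limma, and 702 (6.08%) had an unadjusted p under 0.05, with none of the 9 among them. The median log2 ratio was 0.050 for the 9 genes and 0.037 for all genes. Mbp was above 0 in all 3 pairs, at 0.073, 0.054 and 0.55, and so was Mobp, at 0.14, 0.25 and 0.50. The limma estimate was 0.23 for Mbp (SE 0.24, adjusted p = 0.887) and 0.30 for Mobp (SE 0.23, adjusted p = 0.847). Cnp and Ermn were below 0 in all 3 pairs. Cnp had log2 ratios of -0.20, -0.13 and -0.13, and Ermn of -0.092, -0.25 and -0.30. Of all genes tested, 16.1% were higher in all 3 pairs and 12.7% lower in all 3, and 2 of 9 in each direction is read against these shares.

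Mal and Cldn11 went in opposite directions in 2 of the pairs. Mal had a log2 ratio of -0.63 in the 96-well pair, 0.11 in the 384-well pair without CreER and 1.37 in the 384-well pair with CreER. For Cldn11 the ratios were -0.60, -0.017 and 0.77. Over all genes tested, 4.22% were below -0.5 in the first of these and above 0.5 in the last. With 1 pool per genotype in each pair, the difference between pairs could not be tested. The limma estimates over the 3 pairs were 0.28 for Mal (SE 0.42, 95% interval -0.76 to 1.32, adjusted p = 0.916) and 0.050 for Cldn11 (SE 0.33, -0.77 to 0.87, adjusted p = 0.984), the 2 widest intervals of the 9 genes. Without the 384-well pair with CreER, the 2 estimates became -0.26 and -0.31, and without the 96-well pair 0.74 and 0.38. In these 2 pairs the pool with more Mal and Cldn11 was also the pool with more Snap25 in its oligodendrocytes, 41.3 against 8.88 RPKM in the 96-well pair and 5.41 against 0.651 RPKM in the 384-well pair with CreER. In the 384-well pair without CreER, Snap25 was at 3.93 RPKM in WT and 1.30 RPKM in Ehmt1delta/+. There Mal went the other way, with a log2 ratio of 0.11, and Cldn11 went the same way by a small margin, at -0.017. Leaving out the nuclei with Snap25 in the upper 25% of their pool moved the estimate of Cldn11 over the 3 pairs from 0.050 (SE 0.33) to -0.021. This cut was set within each pool and does not make Snap25 equal between pools. The part of the neuronal RNA in these ratios was therefore not tested.

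**Figure D2:**
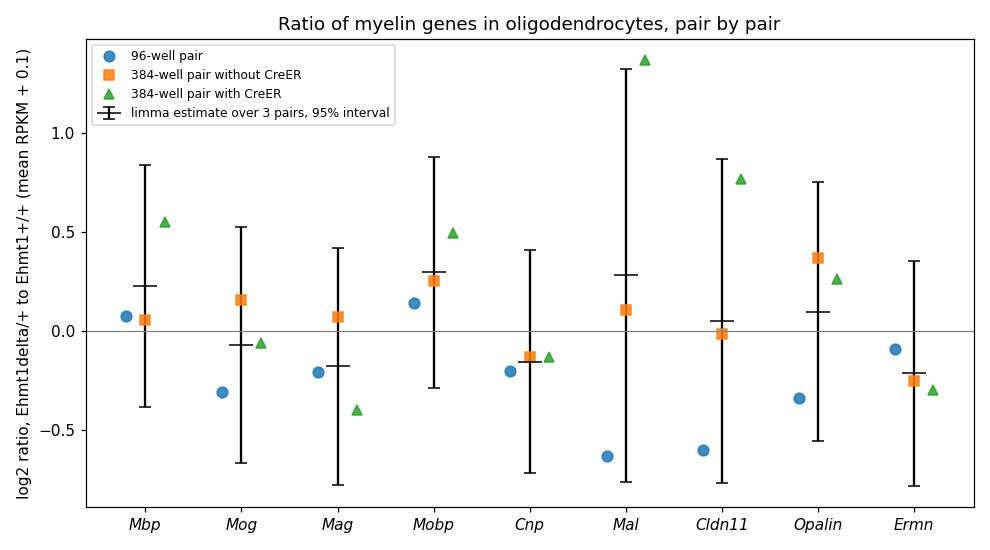
Log2 ratio of Ehmt1delta/+ to Ehmt1+/+ in oligodendrocytes for each of the 9 genes; coloured symbols are the 3 pairs of pools, and the black bar with whiskers is the limma estimate over the pairs with its 95% interval. The whiskers of every gene cross 0, and the symbols of Mal reach from -0.63 to 1.37.

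Each 96-well pool was spread over 4 plates, which share the pool's mice and are a description of its spread, not replicates. Mal was at 451, 553, 500 and 544 RPKM on the WT plates and at 468, 210.2, 212.7 and 368.03 RPKM on the Ehmt1delta/+ plates. Cldn11 was at 593, 675, 618 and 692 RPKM against 598, 205.3, 311.7 and 511 RPKM. Within the plate code that both genotypes share as 002, Mal and Cldn11 were about equal (log2 ratios of 0.054 and 0.012), while the shared codes 004 and 005 gave -1.25 and -1.35 for Mal and -1.59 and -1.15 for Cldn11. The lower means of these genes in the 96-well Ehmt1delta/+ pool were thus lowest on 2 of its 4 plates. Snap25 on these plates was at 31.3 to 51.9 RPKM in WT and 3.69 to 14.4 RPKM in Ehmt1delta/+ oligodendrocytes, with the lower values, 4.88 and 3.69, on the plates of codes 004 and 005. On the same plates Mbp was at 967 RPKM on 004, above the WT plates (749 to 877 RPKM), and at 740 RPKM on 005, below them.

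Of the 9 genes, Mobp was higher on every Ehmt1delta/+ plate (502 to 559 RPKM) than on every WT plate (449 to 496 RPKM), and Mag was lower on every one (456 to 543 against 568 to 623 RPKM). Among 20177 genes of oligodendrocytes in 96-well plates, the plates of the 2 pools did not overlap for 2.66% in the higher and 4.88% in the lower direction. The log2 ratios of Mobp in the 384-well pairs without and with CreER were 0.25 and 0.50, and those of Mag 0.072 and -0.40, after -0.21 in the 96-well pair. Mag thus had the same sign in 2 of the 3 pairs.

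**Figure D3:**
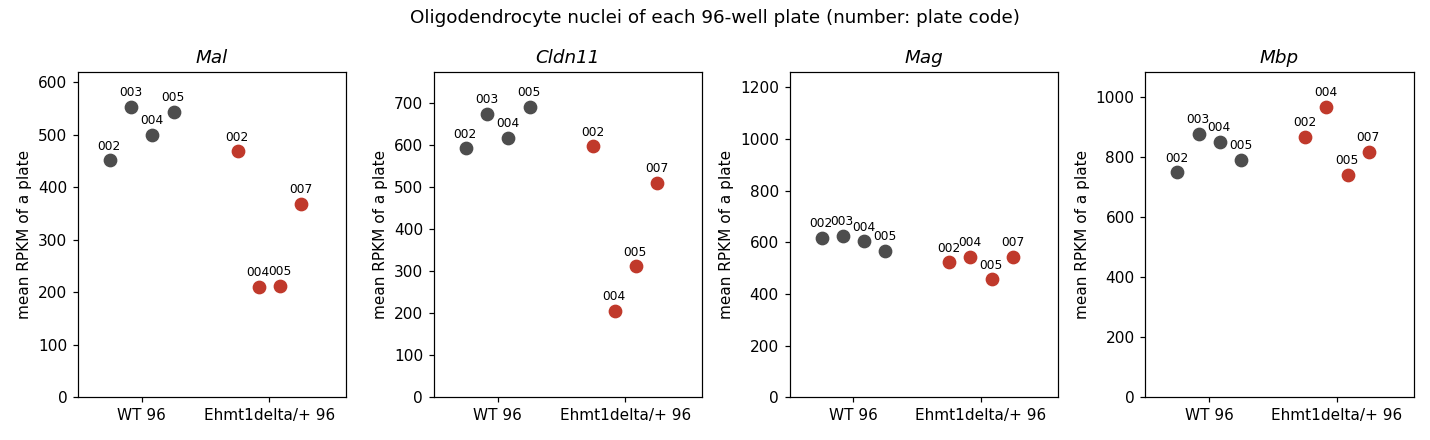
Mean RPKM of Mal, Cldn11, Mag and Mbp in the oligodendrocytes of each 96-well plate (linear axis from 0; 1 point per plate with its code, grey for WT, red for Ehmt1delta/+). For Mal and Cldn11 the Ehmt1delta/+ plate 002 lies among the WT plates and plates 004 and 005 lie lowest, at 210.2 and 212.7 RPKM for Mal, while Mag is lower on every Ehmt1delta/+ plate and the plates of both pools overlap for Mbp.

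Mal and Cldn11 also went together from nucleus to nucleus. Spearman's rho between them was 0.860 in the 73 oligodendrocytes of the 96-well WT pool and 0.767 in the 71 of the 96-well Ehmt1delta/+ pool. In the 384-well pools it was 0.302, 0.212, 0.0455 and 0.649 (69, 46, 71 and 67 nuclei). Mbp and Mobp were related less closely, at 0.399, 0.163, 0.184, 0.198, 0.376 and 0.149. Mag showed little relation to the other members, with median rho over the pools between -0.11 (Ermn) and 0.048 (Mal). The nuclei of a pool share plates and libraries, and values in the 384-well pools rest on few reads, so these are descriptions.

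**Figure D4:**
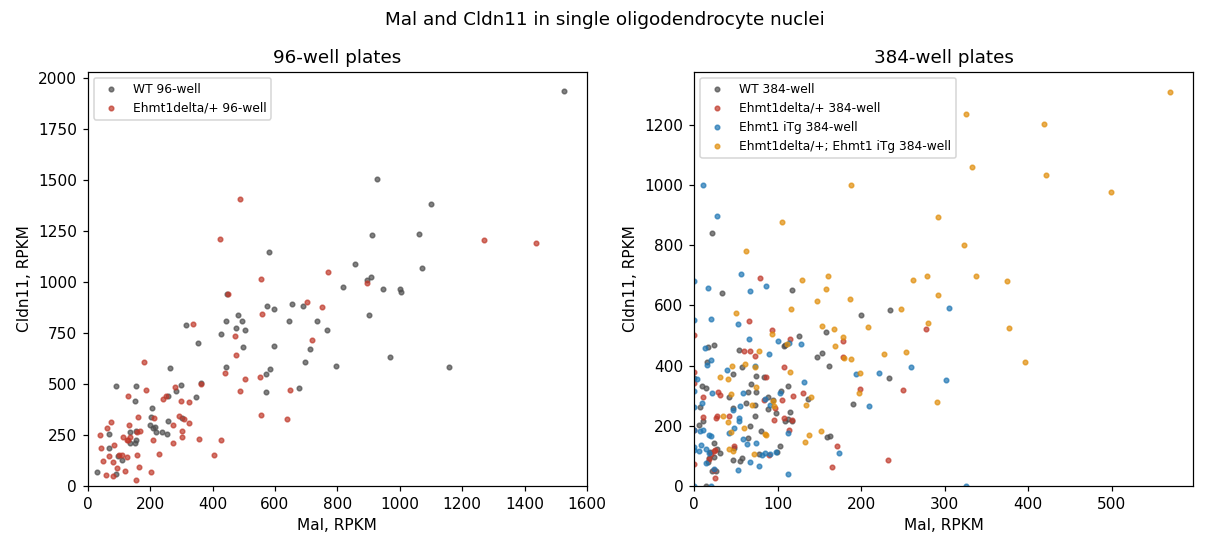
RPKM of Mal (horizontal) and Cldn11 (vertical) in single oligodendrocyte nuclei of the 96-well plates (left) and the 384-well plates (right), linear axes, coloured by pool. In the 96-well plates both genes rise together, Mal from 29.9 to 1526 RPKM, and in the 384-well plates the points of Ehmt1delta/+; Ehmt1 iTg reach the highest Mal values.

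The other genes of the myelin programme were counted from fixed lists. Of 17 structural and junction genes, none passed an adjusted p of 0.05 in limma in the 4 or in the 6 pools, and 8 of 17 were above 0 in the 6 pools, with a median log2 ratio of -0.015. Hapln2, a link protein of the nodal matrix, was at 261.95 and 332.8 RPKM in the 96-well pools and 521 to 710 RPKM in the 384-well pools. Cntn2, an adhesion protein of the juxtaparanode, was at 247.8 and 266.5 against 413 to 539 RPKM.

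Of 8 enzymes of myelin lipids none passed, 5 were above 0 and the median log2 ratio over the 6 pools was 0.026. Enpp2, the lysophospholipase autotaxin, was at 617, 578, 340.2, 359.9, 366.8 and 376 RPKM. Fa2h, which hydroxylates the fatty acids of myelin galactolipids, was below 0 in all 3 pairs (log2 ratio -0.31, SE 0.23, limma adjusted p = 0.838), and Cers2, a ceramide synthase, was above 0 in all 3 (0.086, SE 0.23, limma adjusted p = 0.951). Of 10 regulators none passed, 4 were above 0 and the median was -0.040. Myrf was at 162.4, 161.97, 258.6, 241.9, 257.4 and 249.6 RPKM, Sox10 at 71.7, 79.3, 275.9, 270.99, 199.2 and 171.7 RPKM, and Olig1 at 48.01, 47.2, 39.1, 44.9, 44.6 and 67.5 RPKM. Myrf and Sox10 were thus lower in both 96-well pools than in all 384-well pools, as Mag and Cnp were, while Mal and Ermn went the other way.

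The genes whose level followed the mean profile of the 9 most closely over the 18 combinations of pool and cell type were Tmem98, Bcas1os1, Nkx2-2, Ypel2, Pde8a, Tnni1, Olfml1, En2, Ankub1 and Pkd2l1. Their Pearson r ran from 0.997 to 0.991 among 8469 genes ranked. The profile is set mainly by the difference between oligodendrocytes and the other cells. Tmem98 was at 38.2 to 51.2 RPKM in oligodendrocytes and at most 0.0368 RPKM in neurons, and Ypel2 was at 118.5 to 143.8 RPKM and at most 8.59 RPKM.

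Nuclei of other types gave the background of these genes. In neurons, with a median depth of 323273 to 397880 reads in every pool, the mean level of Mag had a median over the pools of 0.0152% of that in oligodendrocytes. For Ermn, Opalin, Cldn11, Mal, Mobp and Mog it was 0.0504%, 0.0543%, 0.0678%, 0.0713%, 0.152% and 0.222%. Mbp, at 0.867%, and Cnp, at 1.496%, were higher. The members therefore did not keep the ratios they had in oligodendrocytes. Mbp was detected in 94.5%, 87.2%, 80.4%, 79.1%, 80.4% and 83.2% of neurons, at 6.76, 8.32, 4.05, 7.09, 5.86 and 7.61 RPKM. In oligodendrocytes Mag had a mean over the 6 pools of 877 RPKM, against 782 RPKM for Mbp. It was below Mbp in both 96-well pools and in Ehmt1delta/+; Ehmt1 iTg, and above Mbp in the others. Mag was detected in 6.18% to 13.04% of neurons. After thinning to 25000 reads, the expected share of neurons with Mbp was 43.1% to 61.1%, and that with Mag 0.683% to 2.39%. The Mbp locus also makes transcripts of other start sites outside the oligodendrocyte lineage, and gene-level values do not separate them.

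Cnp in neurons was at 4.28 and 2.17 RPKM in the 96-well WT and Ehmt1delta/+ pools, and at 1.80 to 2.29 RPKM in the 384-well pools. The 4 WT plates (3.72 to 5.02 RPKM) and the 4 Ehmt1delta/+ plates (1.98 to 2.43 RPKM) did not overlap. Among 26120 genes of neurons in 96-well plates, the plates of the 2 pools did not overlap for 4.71% in the higher and 8.45% in the lower direction. Its overlapping neighbour Dnajc7 was at 19.5 and 19.2 RPKM in the same neurons. In the 384-well pair without CreER, Cnp in neurons was at 2.16 in WT and 2.29 RPKM in Ehmt1delta/+.

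Ermn in neurons differed more sharply between the 96-well pools. The gene was read in 31 WT neurons (12.3%, exact 95% interval 8.48% to 16.9%) and in 2 Ehmt1delta/+ neurons (0.755%, 0.0915% to 2.70%), and the shares in the 384-well pools were 0.327% to 1.43%. Each of the 4 WT plates showed it, in 7.94% to 18.0% of neurons, against 0% to 1.67% on the Ehmt1delta/+ plates. Plate means did not overlap in this direction for 8.45% of the 26120 genes of neurons, Ermn among them. A gene entered this count if its detection in either of the 96-well pools passed the detection filter. Ermn passed through the WT pool only (12.3% against 0.755%), the pool in which it was higher. Its place in the count therefore depends on the difference itself and is no separate test of it. The intervals cover counting error only, and the plates of a pool are not replicates. The depth of neurons was similar, with medians of 343803 and 352622 reads. Ermn overlaps Galnt5 on the opposite strand, which was at 0.0454 and 0.00381 RPKM in these neurons. Olig1 was also detected in more of the WT neurons (15.02% against 4.91%), as were Mal (14.2% against 7.17%) and Cldn11 (13.04% against 6.79%). Sox10 (12.3% against 6.42%), Mag (13.04% against 8.30%), Mog (21.3% against 17.4%) and Mbp (94.5% against 87.2%) went the same way. Opalin (2.77% against 1.13%) and Cnp (94.1% against 92.5%) did too, and Mobp was at 41.9% in both. Neurons with 5 or more of the 9 genes numbered 24 in the 96-well WT pool and 4 in the 96-well Ehmt1delta/+ pool. The 384-well pools held 3, 3, 1 and 3 such neurons. The mean level of Olig1 went the other way, at 0.321 against 0.602 RPKM. That mean leans on a single Ehmt1delta/+ neuron at 89.2 RPKM, where the highest WT neuron was at 4.32 RPKM. Whether the Ermn difference is part of the higher detection of these other genes in WT neurons was not tested. In oligodendrocytes Ermn was at 68.9 and 64.7 RPKM in the 96-well pools.

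By limma over the 4 pools, 4 of the 9 genes passed the detection filter in neurons: Mbp, Mog, Mobp and Cnp. Of 23853 genes, 0 (0%) passed an adjusted p of 0.05 and 2428 (10.2%) had an unadjusted p under 0.05, with Mbp as 1 of the 4 members. Its log2 ratio was 0.30 in the 96-well pair and 0.79 in the 384-well pair (estimate 0.55, SE 0.17, 95% interval 0.061 to 1.03, limma adjusted p = 0.479). Without the neurons that had Olig1 or Sox10 above 0 the estimate was 0.50. Mog had a log2 ratio of -0.44 (SE 0.22, limma adjusted p = 0.571), Mobp of 0.17 (SE 0.10, limma adjusted p = 0.627) and Cnp of -0.43 (SE 0.29, limma adjusted p = 0.659).

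In microglia, the phagocytes of the brain, Cnp, Mag and Mbp were read more often than the other members. Mag was at 7.88, 6.98, 12.6, 3.36, 15.6 and 13.9 RPKM and was detected in 58.3%, 53.1%, 25%, 36.8%, 40% and 39.1% of microglia, while in neurons its mean was 0.0830 to 0.413 RPKM. As a share of the oligodendrocyte level, Mag was at 0.303% to 1.63% in microglia and Mbp at 0.352% to 0.797%. In the 384-well Ehmt1delta/+ pool Mag (0.303%) was below Mbp (0.487%) and Cldn11 (0.403%). Mbp was at 4.34, 3.00, 2.98, 3.53, 3.35 and 7.62 RPKM and was detected in 25% to 69.4% of microglia. Mog was detected in 0 to 1 microglia of each pool and Opalin in 0 to 2. The median depth of microglia was 493358 and 510640 reads in the 96-well pools and 39940 to 51468 in the others. A share of 0 of 16 in the 384-well WT pool allows up to 20.6% by the exact interval. Cnp was at 12.7, 8.19, 8.42, 6.04, 3.24 and 7.75 RPKM in microglia, where Dnajc7 was at 31.9 to 68.7 RPKM. Reads of the 2 overlapping genes cannot be told apart without strand. Mag overlaps no gene in the annotation, although part of its values were not whole reads.

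Only Mbp, Mag and Cnp passed the detection filter in microglia. Of 13686 genes, 0 (0%) passed an adjusted p of 0.05 in limma and 1.93% had an unadjusted p under 0.05, with none of the 3 members. Their log2 ratios of Ehmt1delta/+ to WT were -0.14 (SE 0.50), -1.02 (SE 0.67) and -0.55 (SE 0.46), with limma adjusted p-values of 0.978, 0.920 and 0.920. With 16 and 19 microglia in the 384-well pools, these estimates are wide, from -3.18 to 1.13 for Mag.

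**Figure D5:**
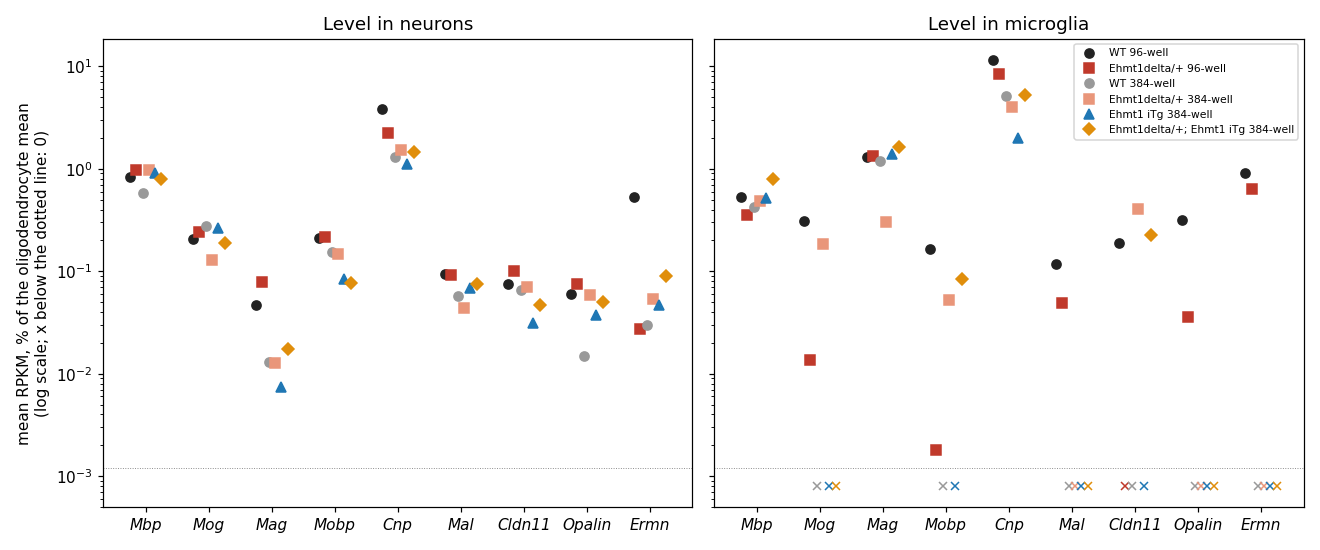
Mean RPKM of the 9 genes in neurons (left) and microglia (right) as a percentage of the oligodendrocyte mean of the same pool (log axis; crosses below the dotted line are means of 0), with 1 symbol per pool. In neurons Cnp and Mbp lie highest and Mag lowest in 5 of 6 pools, Ermn of the 96-well WT pool stands apart at 0.535%, and in microglia Cnp and Mag lie above the other members in 5 of 6 pools.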

How the data were processed

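Nuclei of mouse cortex were read by RamDA-seq. Per the labels' processing notes and the study's methods, the authors used FastQC, HISAT2 2.0.4 with mm10 and featureCounts of Subread 1.5.0, and set cell types from UMAP clusters and marker genes, so a cell type against another is a description. The authors deposited RPKM values for 52636 genes, 1 table per plate format. Of values above 0, 30.9% (96-well) and 26.6% (384-well) were not whole reads (tolerance 0.001 reads). Symbols were found for 52403 genes, and coordinates (GENCODE M21, mm10) for 49121 with the same versioned identifier, 7 of the members among them.

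For each pool and cell type the mean RPKM over nuclei was taken, and limma 3.58.1 (R 4.3.3) compared log2(mean RPKM + 0.1), with Benjamini-Hochberg adjustment at 0.05. Genes had to be above 0 in 10% or more of a pool's nuclei, for 1 of the genotypes in every pair. A count test had been set in case counts were given, and RPKM values led to limma in its place. Read totals were recovered from the steps of the values. The fit and the recovery were tested on simulated data. Shares have exact Clopper-Pearson intervals at 95%. All members are named. Of the other lists the 3 genes with the highest mean are named, except 1 that is not reported here, and the 10 genes most like the members were taken by Pearson r, predicted genes passed over. The members and lists were chosen with earlier results of these data known. Alternatives were another pseudocount, no filter, other ways to average, a centring, a variance trend, left-out pairs, single plate codes, and nuclei with RNA of other types left out. SciPy 1.17.1, pandas 2.3.3 and numpy 2.4.6 ran under Python 3.11.15.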

Additional observations from a re-analysis of the deposited data

Results flagged for a closer look

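Mal and Cldn11 changed direction between pairs of pools. The log2 ratio of Ehmt1delta/+ to Ehmt1+/+ in oligodendrocytes was higher by 2.00 for Mal and by 1.37 for Cldn11 in the 384-well pair with CreER than in the 96-well pair, below 0 in the latter and above 0 in the former. The difference was not tested, since each pair has 1 pool per genotype. Of the 9 members, these 2 were beyond 0.5 in both directions.

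In the neurons of the 96-well WT pool, 1 of 4 plates (code 005) stood apart from the other 3 in 2 background values. Its mean Mal was 0.882 RPKM, against 0.315 to 0.361 on the other plates, and its mean Cldn11 was 0.290 RPKM, against 0.529 to 0.562. Of 36 sets of 4 plates examined by Dixon's ratio, 2 were beyond the 95% value, and chance alone marks about 1 in 20.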

How the results depend on the processing

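No member passed an adjusted p of 0.05 by limma in any setting tried, and the members' adjusted p ranged from 0.653 to 0.998 in oligodendrocytes over 4 pools, 0.814 to 0.997 over 6 pools, 0.424 to 0.856 in neurons and 0.889 to 0.998 in microglia. The number of all genes called, 0 in every comparison, became 6 (all higher) with the mean of log2(RPKM + 1) over nuclei and 2 (Gm48568, Gm4813) with a variance trend for oligodendrocytes over 4 pools. Over 6 pools it became 1 with a pseudocount of 1 (Gm48568), 4 with a trend (Gm25241, Gm49375, Gm48568, Gm4813) and 1 without the nuclei with Snap25 in the upper 25% (Clca4a), and 0 to 1 (Clca4a) with a pair of pools left out. These genes were named after their values were seen, and the cause was not tested. In neurons and microglia it was 0 in all settings tried. Among the settings with a test, the sign of a member turned in 7 cases. Opalin over 4 pools became -0.13 with the mean of log2 values and -0.028 without the nuclei high in Snap25, and Cldn11 over 6 pools became -0.021 without them. With a pair left out, the estimates over 6 pools ranged from -0.19 to 0.048 for Mog, -0.26 to 0.74 for Mal, -0.31 to 0.38 for Cldn11 and -0.037 to 0.32 for Opalin. With 1 format or 1 plate code alone, the estimates over 4 pools have no test and are not in this count, although signs turned there too. In oligodendrocytes the 384-well pair alone gave 0.16 for Mog, 0.072 for Mag and 0.11 for Mal, and the 96-well pair alone gave -0.34 for Opalin. The 384-well pair alone also turned Cnp in neurons (0.085) and Mbp in microglia (0.24). The median share of oligodendrocytes with a member stayed at 100% with at least 2 reads and was 99.8% after thinning, and the median level of 288.65 RPKM became 269.2 as a median over nuclei and 300.8 with summed reads. In 384-well oligodendrocytes a median of 3 to 5 reads stood behind a value of Ermn, 8 to 10.5 behind Opalin and 8 to 21 behind Mal, which limits the precision of single nuclei. No paired analysis was possible because the labels give no replicate numbers by which samples of the genotypes could be matched. The fits held a term for plate format or pair of pools instead.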
